A study of Homo sapiens with 19 samples.

Results

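The 5.8S rRNA carries 2 of the 120 ribose methylation sites scored in these data, at nucleotide 14 (Um14, deposited guide SNORD71) and at nucleotide 75 (Gm75, deposited guides SNORD96A and SNORD96B). They were taken as the rows of the score table whose subunit is 5.8S, in all 19 libraries, together with the 143 5.8S positions among the 7000 rRNA positions of the count table. This rule used no measured value, although the members were chosen with earlier results of these data known. Both members had a score in every library, and no filter removed either. The bases U and G come from background knowledge, since the deposited tables give positions and guides only.

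5.8S rRNA is the short RNA of the large ribosomal subunit, base paired with 28S rRNA and cut from the same precursor as 18S and 28S. A box C/D small nucleolar RNA (SNORD) base pairs with a chosen stretch of rRNA and places 1 nucleotide of it in the active site of fibrillarin (FBL), the methyltransferase shared by all box C/D particles. In the human annotation GRCh38.p14, SNORD71 lies within AP1G1, which encodes a clathrin adaptor subunit. SNORD96A lies within RACK1, which encodes a protein of the small ribosomal subunit, and SNORD95, a guide to 28S rRNA, lies within the same gene.

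All libraries were made by RiboMethSeq from Kasumi-1 cells, a long-established line of acute myeloid leukaemia, grown in medium with 20% serum. Control knockdown (KD) and FBL KD, both under doxycycline at 100 ng/ml, were each sequenced as 2 libraries without a vector and 2 with an empty vector. FBL KD cells re-expressing wild-type FBL, the mutant titled FBLTri or the mutant titled FBLQua gave 2 libraries each, also under doxycycline. The labels of the other 5 libraries name no doxycycline. These were made from clone C1 and clone C34 with SNORD127 knocked out, C1 with an empty vector, C1 with SNORD127 added back, and a control clone. Each clone is thus a single line. The labels do not say what FBLTri and FBLQua change, and the column names of these libraries disagree with the titles, which were followed. The column name of the control clone also has the form of a knockout, so its place as a control rests on its title. The column names of FBL KD read shFBL1 and shFBL2 without a vector and shFBL4 with one, so any difference between these constructs and the vector cannot be told apart. The labels do not say that replicates were separate cultures, and p-values then measure the spread between libraries, which may be technical. Transcripts of FBL and of the guides are not part of these counts, so neither the knockdown nor a guide's level was checked.

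Alkaline hydrolysis cuts RNA beside unmethylated riboses, and a methylated ribose leaves a dip in the count of fragment ends 1 position further on. Score C is 1 minus the count in that dip divided by the weighted mean of the 6 positions on either side, and it nears 1 where the dip is empty. The count was read at position 15 for Um14 and at position 76 for Gm75, and neither site had the other inside its flanks. Libraries held 5533150 to 18835537 end counts, of which 26380 to 444728 fell in 5.8S. The 5.8S share of all ends was 1.22 ± 0.686% in the 4 FBL KD libraries and 1.71 ± 0.858% in the 4 control KD libraries (SD, n = 4), a difference within the spread (two-sided exact permutation test, p = 0.4). The 4 control KD and FBL KD libraries without a vector had 37.5 to 44.0% of their 5.8S ends at position 1, the first nucleotide. The other 15, among them SNORD127 clones without a vector, had 19.1 to 26.4%. Position 1 lies outside the flanks of both sites.

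One library stood apart along 5.8S. Replicate 2 of control KD with empty vector had 36.1 of every 1000 5.8S ends at position 20, against 3.45 to 4.89 in the other 18 libraries. It had 53.3 per 1000 at position 77, against 4.89 to 16.9 in the others. At position 9 it had 23.0, against 5.59 to 8.23 in the others. It was also the highest library at positions outside the flanks of both sites, such as 29 and 52. Positions 9 and 20 are in the flanks of Um14 and position 77 in those of Gm75, so this library is named beside the results it moves.

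FBL KD lowered the score of Gm75, while no change was called at Um14. The score of Gm75 was 0.970 and 0.981 in the control KD libraries without a vector and 0.979 and 0.989 in those with an empty vector. In FBL KD it was 0.677 and 0.711 without a vector and 0.649 and 0.659 with an empty vector. Every FBL KD library lay below every control library, with a gap far wider than the spread inside either set. The means were 0.674 ± 0.0273 and 0.980 ± 0.00807 (SD, n = 4), and the fitted change over both backgrounds was -0.305 (SE 0.0115, limma adjusted p = 3.56e-08). With 1 of the 2 members called, this comparison called 73.3% of all 120 sites, so a call alone does not set Gm75 apart. By size its fall ranked 12 from the lowest of the 120 sites, whose median change was -0.0853. The sets did not overlap at 59.2% of the 120 sites, which were lower in every FBL KD library.

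The fall at Gm75 was present in each background. It was -0.281 without a vector (SE 0.0163, limma adjusted p = 1.75e-06), where 60.8% of sites were called. With an empty vector it was -0.330 (SE 0.0163, limma adjusted p = 2.33e-07), where 68.3% were called. The falls differed by -0.0490 (95% interval -0.102 to 0.00358), which the test of the difference did not call (limma adjusted p = 0.142), while it called 30% of sites. In the order of the means, FBL KD without a vector and with an empty vector were neighbours whose libraries did not overlap.

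Um14 had a lower score than Gm75 in control KD. It scored 0.839 and 0.870 in control KD without a vector and 0.808 and 0.894 with an empty vector. In FBL KD it scored 0.839 and 0.846 without a vector and 0.807 and 0.800 with an empty vector. The sets overlapped, and the highest value, 0.894, was in the control library that stood apart. The means were 0.823 ± 0.0229 in FBL KD and 0.853 ± 0.0370 in control KD (SD, n = 4). The fitted change was -0.0298 (SE 0.0178, 95% interval -0.0705 to 0.0109, limma adjusted p = 0.164), rank 89 from the lowest of the 120 sites. An interval that reaches -0.0705 does not show that Um14 was unaffected. The change was -0.0122 without a vector (limma adjusted p = 0.738) and -0.0474 with an empty vector (limma adjusted p = 0.124), and these did not differ by the test (limma adjusted p = 0.519).

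Whether Um14 was called depended on the control KD libraries with empty vector. Without replicate 1 the change over both backgrounds was -0.0511 and was called (limma adjusted p = 0.00505), and with empty vector alone it was -0.0899 (limma adjusted p = 0.00318). Without replicate 2, the library that stood apart, the same changes were -0.00855 and -0.00487 and were not called (limma adjusted p = 0.544 and 0.838). Leaving positions 20 and 77 out of the flanks brought the change over both backgrounds to -0.0220 (limma adjusted p = 0.176) and that of Gm75 to -0.307. On this scale the score of Um14 in replicate 2 was 0.861 in place of 0.894. Position 9, where this library was also high, stayed in the flank of Um14.

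The median score of a library was 0.118 lower in FBL KD than in control KD. Relative to that shift Um14 was higher in FBL KD, by 0.0883 (limma adjusted p = 0.00171 with library medians made equal). That setting moves all sites of a library alike, so any site that fell by less than the shift turns by construction. Gm75 was lower on both scales, with a change of -0.305 as deposited and -0.187 with medians made equal (limma adjusted p = 5.48e-07).

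**Figure D1:**
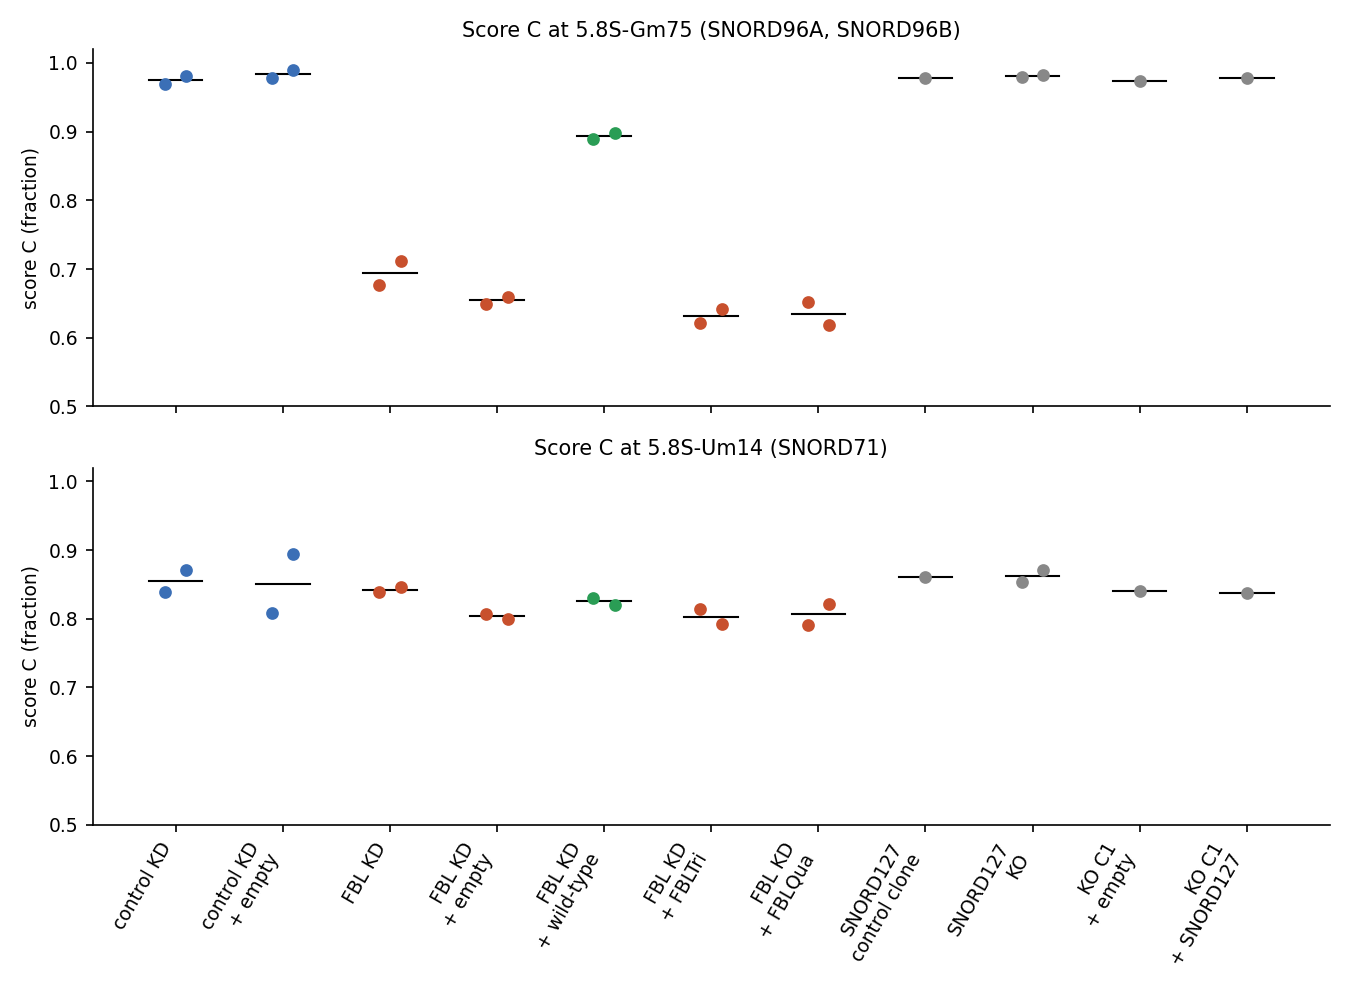
Score C (a fraction, 1 for full protection; the axis starts at 0.5) of Gm75 above and Um14 below, with a point per library and a line at each group mean. Gm75 was 0.970 to 0.989 in control KD, 0.649 to 0.711 in FBL KD and 0.889 to 0.898 with wild-type FBL, while Um14 stayed between 0.791 and 0.894 in all 19 libraries.

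Within a library the deposited scores of the sites stood in opposite order in control KD and FBL KD. Gm75 minus Um14 was 0.130 and 0.110 in control KD without a vector and 0.170 and 0.0957 with an empty vector. In FBL KD it was -0.161 and -0.135 without a vector and -0.158 and -0.140 with an empty vector. Gm75 was thus the higher site in 4 of 4 control libraries and the lower one in 4 of 4 FBL KD libraries. That order in FBL KD depended on the flank: with the downstream flank alone Gm75 was the higher site in 3 of the 4 FBL KD libraries, with Gm75 minus Um14 from -0.0138 to 0.0456, against 0.134 to 0.345 in control KD. The mean was -0.149 ± 0.0130 in the FBL KD libraries and 0.127 ± 0.0323 in the controls (SD, n = 4), a difference of -0.275. A two-sided exact permutation test gave p = 0.0286, the smallest that the 70 arrangements allow. Leaving out any 1 library kept the difference between -0.286 and -0.261.

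The counts behind these scores changed at the position read for Gm75. Position 76 held 36 and 6 ends in control KD without a vector and 67 and 20 with an empty vector. It held 155 and 64 ends in FBL KD without a vector and 984 and 923 with an empty vector. Per 1000 5.8S ends FBL KD had 3.41 ± 1.41 and control KD 0.183 ± 0.0830 (SD, n = 4), with no overlap. With 6 to 67 ends in the dip, the widest 95% Poisson interval of a control score, in replicate 2 without a vector, ran from 0.958 to 0.993. The widest in FBL KD, in the shallowest library, ran from 0.631 to 0.778, below all control intervals. No molecular identifiers mark single molecules here, and the intervals hold no more than counting error.

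Of the 141 5.8S positions that passed the low-count filter, position 76 was the only one called in FBL KD. Its ends rose by 3.82 on the log2 scale (SE 0.27, edgeR adjusted p = 6.06e-06), while edgeR called 1.06% of the 6538 rRNA positions tested. The median change over the 141 positions was -0.14, and 24 had an unadjusted p under 0.05. The next highest change was 0.99, at position 117, which held only 0 to 15 ends per library over the 19 libraries. The call at position 76 held in all alternatives run, but the number called did not. It was 10 with library totals in place of TMM, 5 by DESeq2, and 14 without replicate 2 of control KD or without replicate 1 of control KD with empty vector. With totals taken over 5.8S alone the rise at position 76 was 4.07, and it was again the 1 position called.

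Position 15, which reads Um14, held 206 and 47 ends in control KD without a vector and 312 and 147 with an empty vector. It held 81 and 28 in FBL KD without a vector and 284 and 343 with an empty vector. Per 1000 5.8S ends FBL KD had 1.28 ± 0.271 and control KD 1.08 ± 0.221 (SD, n = 4), and the sets overlapped. The fitted log2 change was -0.0033 (SE 0.19, edgeR adjusted p = 0.998), and its sign changed with the scaling, to 0.22 with totals over 5.8S alone.

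**Figure D2:**
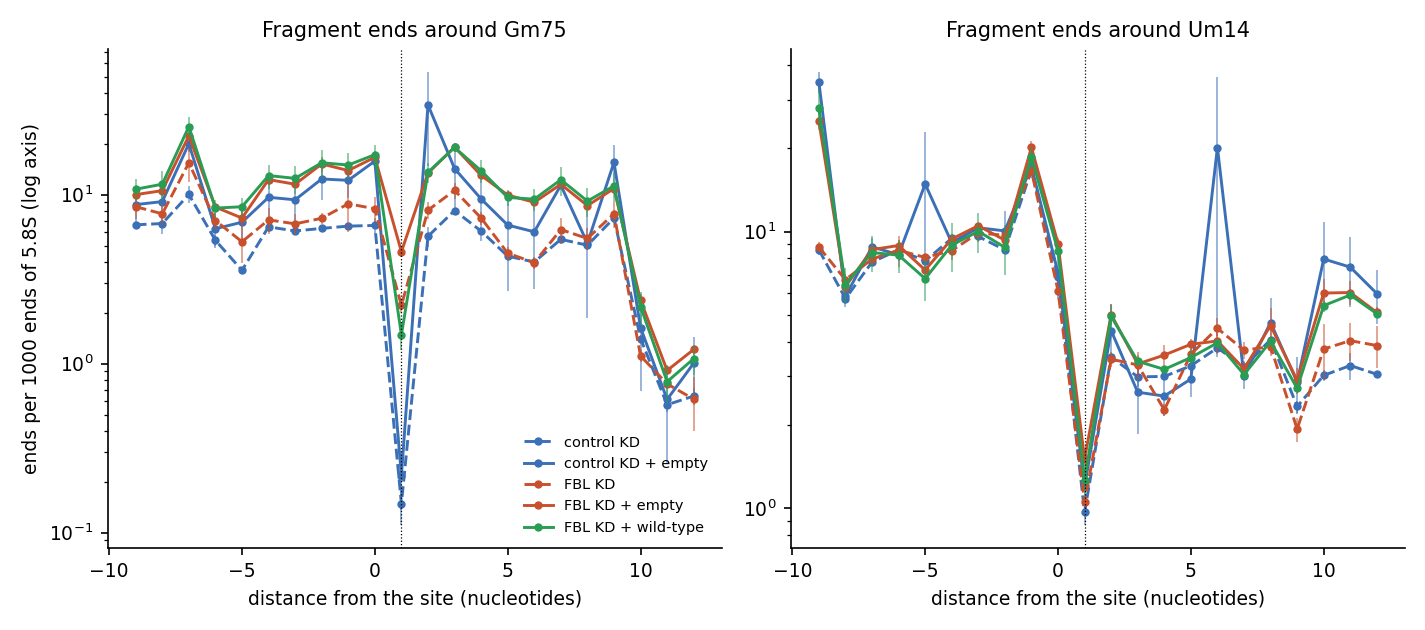
Fragment ends per 1000 ends of 5.8S (log axis) against the distance from Gm75 (left) and Um14 (right), as group means with lines from the lower to the higher of the 2 libraries; the dotted line marks the position read for the score. At that position beside Gm75 control KD held 0.111 to 0.298 and FBL KD 2.00 to 4.90, and the peaks at distances 2 (left) and 6 (right) are replicate 2 of control KD with empty vector.

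**Figure D3:**
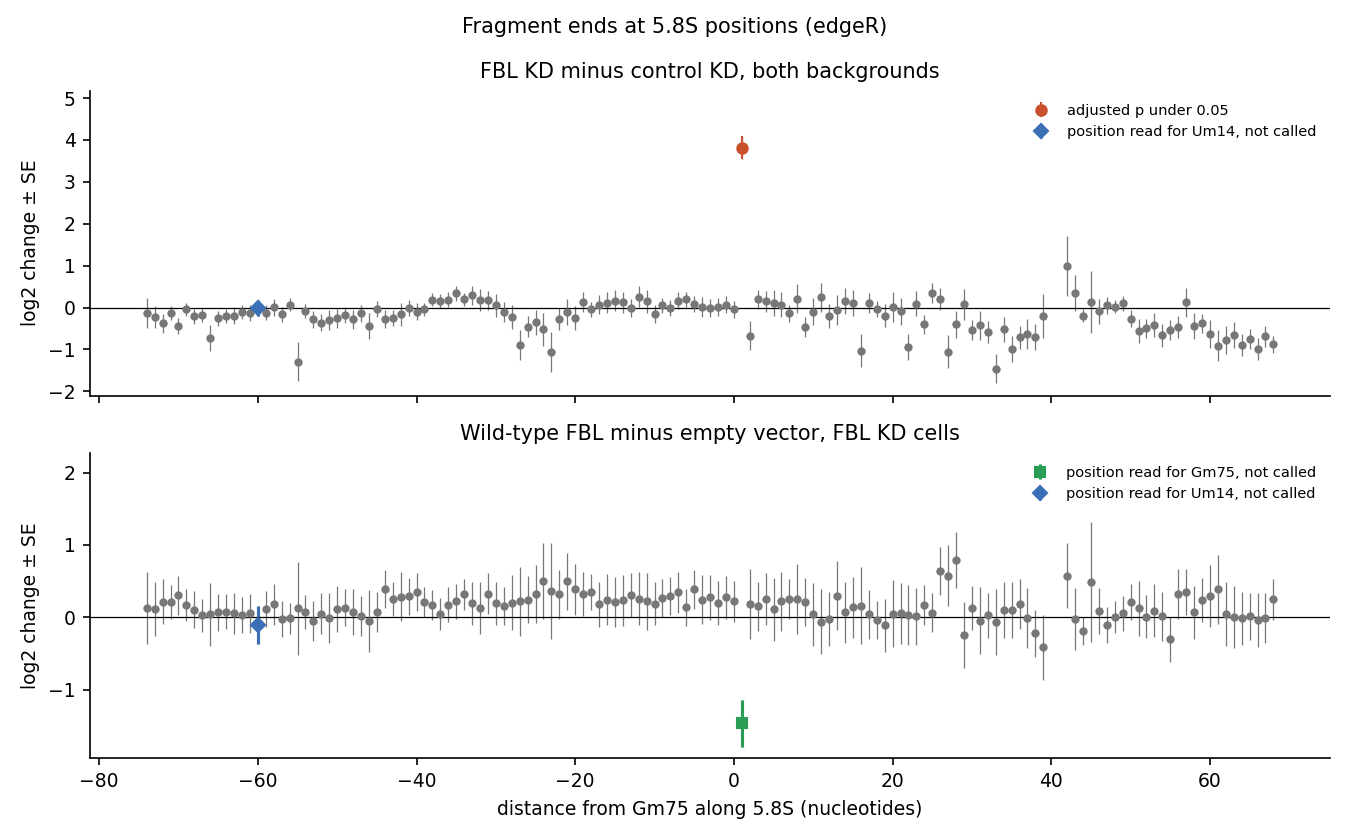
Log2 change in fragment ends (± SE, edgeR) at the 5.8S positions tested, against the distance from Gm75, for FBL KD (above) and for wild-type FBL (below). Position 76, at distance 1, rose by 3.82 in FBL KD; with wild-type FBL its value was -1.47 and was not called.

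The flanks on either side gave the same picture at Gm75. With the upstream flank alone its change was -0.301, and with the downstream flank alone -0.310. For Um14 the sides differed in level. All 19 libraries scored 0.855 to 0.915 against the upstream flank and 0.564 to 0.857 against the downstream flank, so its score depends on which flank is used. The change of Um14 in FBL KD was -0.0168 with the upstream flank (limma adjusted p = 0.192) and -0.0738 with the downstream flank (limma adjusted p = 0.167).

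The same score was computed at every 5.8S position with 6 positions on both sides, from 6 to 136, which gave 131 positions. Gm75 was the 1 position (0.763%) at which all 4 FBL KD libraries lay below all 4 control KD libraries. At the 129 unlisted positions the change ran from -0.196, at position 88, to 0.162, at position 96, with a median of -0.0169. Of these, 106 were within 0.1 of no change, 18 lay below -0.1 and 5 above 0.1, with no test of these single positions. Negative scores were set to 0, and some positions, such as 12 and 26, stood at 0 in every library. Such positions could show neither a change nor a separation, so they are no evidence of stability. No unlisted position reached the change of -0.305 at Gm75. The lowest change, at position 88, came with a control mean of 0.274 ± 0.355 (SD, n = 4). Its flanks hold positions 84 and 91, where replicate 2 of control KD with empty vector again stood apart. That library had 19.7 and 16.1 ends per 1000 there, against 6.33 to 14.5 and 1.29 to 5.08 in the other 18. How many other changes rest on it was not counted.

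A high score alone did not mark the listed sites. Of the unlisted positions 23 scored at least 0.5 in every library, and 8 had a mean over the 19 libraries at or above that of Um14 (0.834 ± 0.0283, SD, n = 19). The 5 highest were positions 114 (mean 0.956), 115 (0.935), 119 (0.890), 116 (0.889) and 30 (0.879). Flanking counts at positions 114, 115, 116 and 119 fell as low as 5.33 to 11.4 in the shallowest library, and at position 30 to 125. FBL KD minus control KD was -0.0619 to 0.0189 at these 5 positions, and none separated the sets.

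**Figure D4:**
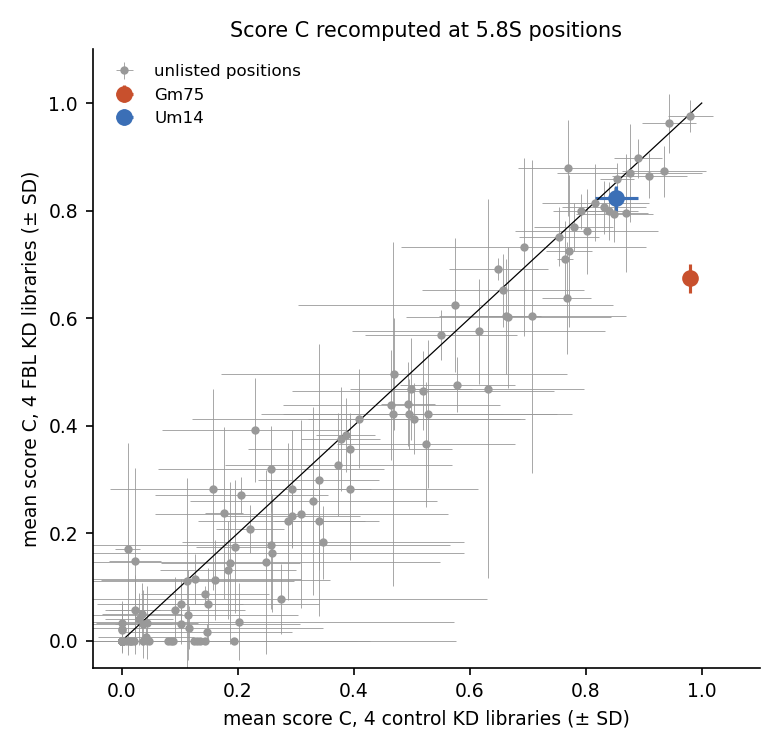
Mean score C in 4 FBL KD libraries against the mean in 4 control KD libraries (± SD) for the 131 5.8S positions at which it could be computed, with a line of equal scores. Gm75 lies at 0.980 in control and 0.674 in FBL KD, below the line, while Um14 lies among unlisted positions at 0.853 and 0.823.

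Wild-type FBL raised Gm75 part of the way back. Its score was 0.889 and 0.898 with wild-type FBL, against 0.649 and 0.659 with empty vector in FBL KD cells. These libraries did not overlap, and the change was 0.239 (SE 0.0163, limma adjusted p = 3.76e-06), in a comparison that called 58.3% of sites. Both libraries stayed below the 0.979 and 0.989 of control KD with empty vector. The remaining difference was -0.0909 (SE 0.0163, limma adjusted p = 0.00304), in a comparison that called 30% of sites. With library medians made equal it was -0.0491 and no longer called (limma adjusted p = 0.0695). Of the loss with empty vector, 72.4% was regained, and 71.1 to 73.8% when either wild-type library was left out.

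Position 76 held 4.90 and 4.29 ends per 1000 5.8S ends with empty vector and 1.76 and 1.21 with wild-type FBL, again without overlap. The log2 change was -1.47 (SE 0.32), the lowest of the 141 5.8S positions. edgeR did not call it (adjusted p = 0.219) and called 0 of the 141, with 1 at an unadjusted p under 0.05 and 0.138% of all positions called. DESeq2 called 1 of 143, position 76 (adjusted p = 6.77e-05); over the alternatives the adjusted p at this position ran from 6.77e-05 to 1.

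Um14 scored 0.831 and 0.820 with wild-type FBL, just above the 0.807 and 0.800 with empty vector. The change was 0.0218 (95% interval -0.0358 to 0.0794, limma adjusted p = 0.524). Against control KD with empty vector Um14 differed by -0.0256 (limma adjusted p = 0.501). Without replicate 1 of that control the difference was -0.0681 and was called (limma adjusted p = 0.0281), and without replicate 2 it was 0.0169.

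No rise of Gm75 was called with either mutant. The score was 0.622 and 0.642 with FBLTri and 0.651 and 0.619 with FBLQua, and all 4 libraries lay below both wild-type libraries. Against wild-type FBL the change was -0.261 for FBLTri (limma adjusted p = 2.27e-06) and -0.258 for FBLQua (limma adjusted p = 2.50e-06), with SE 0.0163 for each. These comparisons share the wild-type libraries and called 62.5% and 60% of sites. Against the empty vector the differences were -0.0223 for FBLTri (95% interval -0.0594 to 0.0149, limma adjusted p = 0.382) and -0.0191 for FBLQua (95% interval -0.0563 to 0.0181, limma adjusted p = 0.535). Neither was called, where 36.7% and 19.2% of sites were. As a share of the loss with empty vector these are -6.75% and -5.80%. The mutants differed from each other by -0.00314 at Gm75 (95% interval -0.0403 to 0.0341, limma adjusted p = 1), where 8.33% of sites were called.

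Position 76 held 4.74 and 4.59 ends per 1000 with FBLTri and 5.37 and 4.97 with FBLQua, the latter above both empty-vector libraries. Um14 was 0.814 and 0.792 with FBLTri and 0.791 and 0.821 with FBLQua, overlapping the empty vector. It differed from the empty vector by -0.000456 with FBLTri and by 0.00270 with FBLQua, with limma adjusted p = 1 for each. The 95% intervals were -0.0580 to 0.0571 and -0.0549 to 0.0603. Against wild-type FBL Um14 differed by -0.0223 and -0.0191, neither called (limma adjusted p = 0.472 and 0.580).

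**Figure D5:**
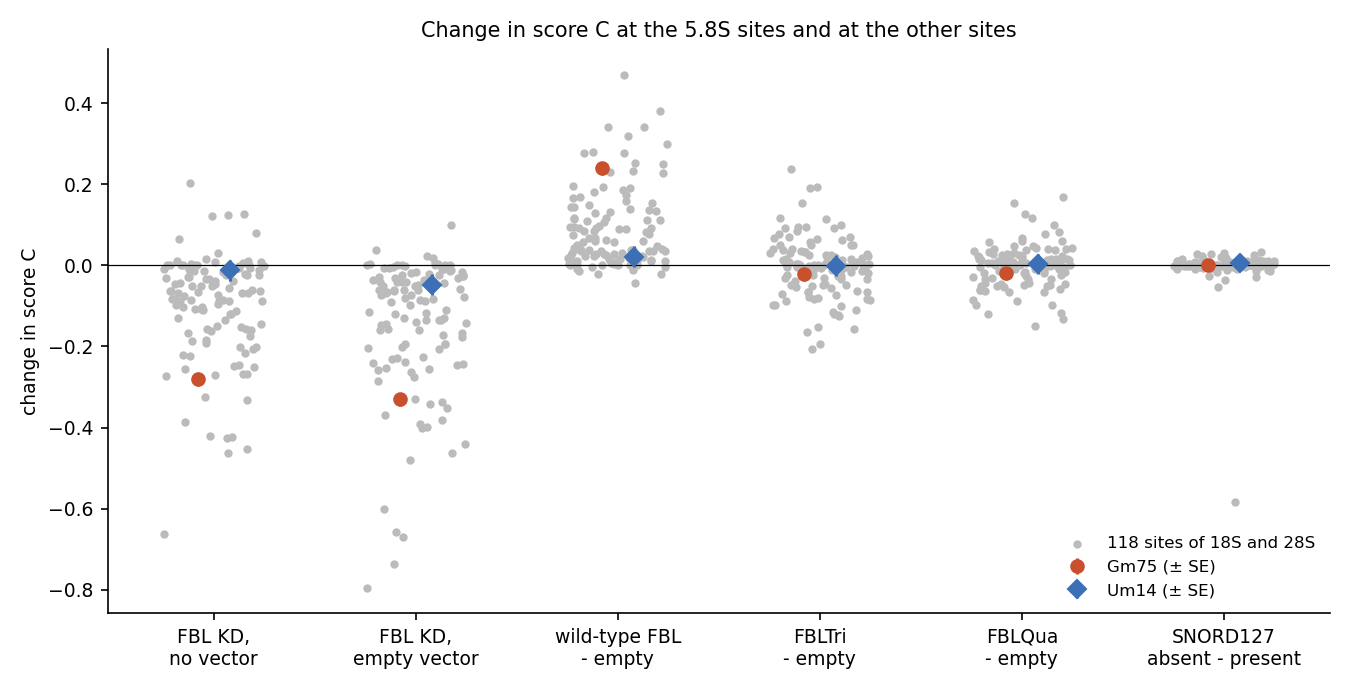
Change in score C at Gm75 and Um14 (± SE, limma; some error bars are smaller than the marker) beside the 118 sites of 18S and 28S (grey, spread sideways at random) in 6 comparisons. Gm75 changed by -0.281 and -0.330 in FBL KD and by 0.239 with wild-type FBL, while Um14 lay between -0.0474 and 0.0218 in all 6.

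The vector alone gave no called change at either site in control KD. The difference between empty vector and no vector was 0.00889 at Gm75 (95% interval -0.0283 to 0.0461, limma adjusted p = 0.845) and -0.00372 at Um14 (95% interval -0.0613 to 0.0539, limma adjusted p = 0.958). This comparison called 8.33% of sites.

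SNORD127 guides 18S rRNA and has no listed site in 5.8S. Gm75 scored 0.980 in knockout clone C1, 0.983 in clone C34, 0.974 in C1 with empty vector, 0.978 in C1 with SNORD127 and 0.979 in the control clone. Um14 scored 0.854, 0.871, 0.841, 0.837 and 0.861 in the same libraries. At Gm75 libraries without SNORD127 lay on both sides of those with it, and at Um14 the ranges overlapped, with C1 plus SNORD127 the lowest of the 5. For the fit, C1, C34 and C1 with empty vector were pooled as libraries without SNORD127. The control clone and C1 with SNORD127 were pooled as libraries with it. Clone C1 is thus on both sides, and the intervals do not measure a spread between independent clones. The difference was 0.000742 at Gm75 (95% interval -0.0260 to 0.0275) and 0.00655 at Um14 (95% interval -0.0396 to 0.0527), with limma adjusted p = 1 for each. The 1 site called, 0.833% of the 120, was not in 5.8S. Position 76 held 0.244 to 0.380 ends per 1000 in these 5 libraries, overlapping the 0.111 to 0.298 of control KD. The larger share of ends at position 1 lowers this value in the control KD libraries without a vector.

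Over all groups Gm75 was lowest in FBL KD without wild-type FBL. The 6 FBL KD libraries with an empty vector or a mutant scored 0.619 to 0.659, and the pair without a vector lay just above them. The wild-type FBL pair stood between, and the 9 control KD and SNORD127 libraries scored 0.970 to 0.989. Ordered by mean from the lowest, FBLTri and FBLQua overlapped, as did FBLQua and the empty vector. Gaps without overlap separated the empty vector from no vector, no vector from wild-type FBL, and wild-type FBL from the rest. At Um14 the 6 libraries with an empty vector or a mutant scored 0.791 to 0.821 and the 9 control KD and SNORD127 libraries 0.808 to 0.894, which overlap. Over the 19 libraries the SD was 0.160 at Gm75 and 0.0283 at Um14.

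Likeness to other sites was measured as the mean absolute difference between scores after subtracting each site's own mean over the 19 libraries. Nearest to Gm75 were 28S-389 (SNORD26) at 0.0285, 28S-2811 (SNORD95) at 0.0306, 28S-2791 (SNORD55) at 0.0326, 28S-2774 (SNORD99) at 0.0355 and 28S-1747 (SNORD73A) at 0.0363. The median over all other sites was 0.116, and Um14 lay at 0.134. Nearest to Um14 were 18S-1703 (SNORD43) at 0.0148, 18S-601 (SNORD103A, SNORD103B and SNORD85) at 0.0153, 28S-3866 (SNORD47) at 0.0159, 18S-436 (SNORD100) at 0.0162 and 18S-576 (SNORD93) at 0.0167, against a median of 0.0428. All sites share libraries and depth, so these are descriptions. The 5 sites near Gm75 fell by 0.221 to 0.327 in FBL KD, and those near Um14 had changes of -0.0330 to -0.00503. Of the latter limma called 3 of 5, against 73.3% of all 120 sites. The FBL KD and control KD libraries were among those used to pick these sites, so changes of like size follow from the choice.

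28S-2811 and 28S-2802 are the listed sites of SNORD95, the guide that shares RACK1 with SNORD96A. Both fell in FBL KD, by 0.327 at 28S-2811 (limma adjusted p = 8.88e-08) and by 0.142 at 28S-2802 (limma adjusted p = 1.75e-07), beside -0.305 at Gm75. With wild-type FBL they rose by 0.277 and 0.117, beside 0.239 at Gm75. In the larger lists limma called 59 of 71 sites in 28S lower and 1 higher, with 11 not called (median change -0.153). In 18S it called 26 of 47 lower and 1 higher, with 20 not called (median change -0.0440). Over all 120 sites 86 were called lower and 2 higher. Both 28S sites at positions up to 500 fell, by 0.237 and 0.162.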

How the data were processed

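RiboMethSeq was made from 100 ng of total RNA cut by alkali (12 min at 95 °C) into pieces near 30 nucleotides long, per the labels' protocols. The submitters' processing notes name cutadapt and Bowtie2; their versions and settings, like the reference, were not given in the sources used here. As deposited by the authors, the data were whole-number counts of fragment ends for 7000 positions (18S 1836, 28S 5021, 5.8S 143), not normalized, and, at 120 sites, score C, a fraction between 0 and 1. The formula in the text, with weights from 1 to 0.5 and negative values set to 0, matched all 2280 of the 2280 deposited scores to within 1e-09. Positions are rRNA nucleotides, and no genome build is named, so no coordinates are given. Because the score is a ratio within a library, depth changes mainly its precision.

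Groups came from the sample titles. Score C was fitted with limma 3.58.1 in R 4.3.3 (a coefficient per group, variance trend, two-sided, Benjamini-Hochberg over the 120 sites at 0.05) on the 14 knockdown libraries, whose 7 groups of 2 share an estimate of the spread, or on all 19 for SNORD127. End counts were fitted over all positions with edgeR 4.0.16 (quasi-likelihood, TMM, filterByExpr), with DESeq2 1.42.0 as an alternative. Both tests were checked on simulated data. Values of 1 per library were compared by exact permutation. The rest was done in Python 3.11.15 with pandas 2.3.3, scipy 1.17.1, numpy 2.4.6 and matplotlib 3.10.9. Replicate pairs differed by more than sampling noise (chi-square per degree of freedom 2.17 to 249.8 over 5.8S positions), so each library was counted once.

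The members and lists were chosen with earlier results of these data known. The text names both 5.8S sites, the positions read for them, up to 6 called 5.8S positions with the largest change per comparison, the 5 nearest sites to each member, the 5 highest unlisted positions, and lists of 18S sites, 28S sites, 28S sites up to position 500 and SNORD95 sites. Lists by base were left out, since the tables give no base. Positions with the lowest and highest change were named after their values were seen. Alternatives were fits on the compared groups, no variance trend, a logit scale, recomputed scores with flanks of 6 or 2, equal medians, a replicate block, other count scalings and filters, and each replicate left out. Added after seeing the data were a single flank, positions 20 and 77 left out of the flanks, and replicate 2 of control KD with empty vector left out of the fit.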

Additional observations from a re-analysis of the deposited data

How the results depend on the processing

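The results for Gm75 depended little on the processing. Of its 135 refits under other settings 132 kept direction and call over the 13 comparisons, and of 61 with 1 replicate left out 58 did. For Um14 these were 118 of 135 and 44 of 61. Of the 17 turns of Um14 under other settings 10 came with library medians made equal. That setting moves all sites of a library alike. It turns any site that changed in the direction of the shift in library medians, but by less. Depth limits the score of Um14 most in FBL KD without a vector, where a dip held as few as 28 ends, and each group held 2 libraries. Other than for equal medians and fewer libraries, the cause was not tested.

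With library medians made equal Um14 turned to 0.0883 in FBL KD over both backgrounds, 0.0865 without a vector and 0.0902 with an empty vector. It turned to 0.00371 in the difference of these falls, -0.0740 for wild-type FBL against empty vector, and 0.0162 against control KD with empty vector. It turned to 0.0747 and 0.0824 for FBLTri and FBLQua against wild-type FBL, 0.000651 for FBLTri against empty vector, and 0.0160 for empty vector against none in control KD. At Gm75 this setting gave -0.0491 for wild-type FBL against control KD (no longer called) and -4.84e-05 for SNORD127.

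With flanks of 2 positions Um14 turned to 0.00733 in the difference of the falls and 0.0112 for wild-type FBL against control KD, and Gm75 to 0.00634 for FBLTri against FBLQua. With the upstream flank alone Um14 was 0.00289 and -0.000248 for FBLTri and FBLQua against empty vector, and 0.00313 between the mutants. For empty vector against none in control KD it was 0.0391 with the downstream flank alone and 0.00608 on a logit scale.

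In end counts, 5.8S positions called in FBL KD were 1 by edgeR with TMM, 10 with library totals and 5 by DESeq2, and ranged from 1 to 14 with 1 replicate left out. DESeq2 called 1 for wild-type FBL, position 76 at -1.46. Position 15 turned to 0.22 with totals over 5.8S, and ranged from -0.15 to 0.21 in FBL KD and from -0.27 to 0.066 for wild-type FBL with 1 replicate left out.

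With 1 replicate left out Um14 ranged from -0.0511 to -0.00855 in FBL KD over both backgrounds, from -0.0277 to 0.00324 without a vector and from -0.0899 to -0.00487 with an empty vector. The difference of the falls ranged from -0.0777 to 0.00735, and wild-type FBL against control KD from -0.0681 to 0.0169. FBLTri and FBLQua against empty vector ranged from -0.0111 to 0.0102 and from -0.0124 to 0.0178, the mutants against each other from -0.0183 to 0.0120, empty vector against none from -0.0462 to 0.0388, and SNORD127 from -0.00529 to 0.0184. The call at Um14 was gained in 4 comparisons, each without replicate 1 of control KD with empty vector, the difference of the falls among them (limma adjusted p = 0.0399). Gm75 ranged from -0.0194 to 0.0132 between the mutants and from -0.00129 to 0.00321 for SNORD127. Gm75 minus Um14 ranged from -0.286 to -0.261, with p = 0.0571 by exact permutation, the smallest that 3 against 4 libraries allow.

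The labels do not say whether replicate numbers pair libraries. Deviations of same-numbered libraries correlated at -0.226 to 0.694 over 21 pairs of groups, with 12 over 0.1. Some groups thus shared deviations by number and others did not, and the reason was not tested. With a replicate block the change of Gm75 was -0.305 (limma adjusted p = 1.82e-07) and that of Um14 -0.0298 (limma adjusted p = 0.155). The block changed no call at either site or in the number of 5.8S positions, and position 15 turned to 0.0035.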
